A study of Mus musculus with 18 samples.

Results

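Nearly all mitochondrial proteins are made in the cytosol and have to be carried into the organelle, and 32 genes of that import machinery were followed while mouse erythroid precursor-like cells matured. The genes were taken by name from the array annotation: every symbol that begins with Timm or Tomm, the names of the inner and outer membrane translocases, together with Samm50, Mtx1, Mtx2, Pmpca, Pmpcb, Grpel1, Grpel2 and Chchd4. They are 32 of 18194 genes named by a probe set of their own. Testing was limited to genes brighter than the 40th percentile of 3 or more arrays, which left 12720 genes in all and 30 of the 32. Timm8a2 and Tomm20l, paralogues of Timm8a1 and Tomm20, stayed below that limit, with values between 2.19 and 3.53 for Timm8a2 and between 2.10 and 2.67 for Tomm20l on the log2 scale, and were not tested. Tomm5 and Tomm6 appear only on probe sets shared with another gene and were not analysed here.

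The cells were G1E-ER4, a clonal line in which Gata1 is disrupted and a fusion of GATA1 to an estrogen receptor domain is supplied, so that estradiol turns the transcription factor on. Cultures were sampled at 3, 7, 14, 21 and 30 h in 20 nM estradiol and before estradiol (0 h), with 3 Affymetrix arrays per time, 18 in all, and every group carries the disrupted gene and the fusion. No culture held for those hours in medium lacking estradiol was analysed here, so time in culture, estradiol and GATA1 activity cannot be told apart. Arrays of a time are biological replicates by their labels, without naming separate cultures. The p-values therefore reflect only how far these samples spread, part of which may be technical. RNA came from whole cultures, so fewer cells of a type and less RNA per cell cannot be told apart.

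Of 9 erythroid markers 8 were measured, and their summed log2 level was 84.9 to 85.3 at 30 h, against 62.4 to 62.6 at 0 h. The probe set named for Hba-a1, an alpha globin gene, lay at means of 2.48 at 30 h and 2.0 at 0 h, below the limit for testing, while Alas2, Slc4a1 and Hbb-bh1 had means of 12.3, 12.4 and 11.6 at 30 h, against 5.85, 6.34 and 4.26 at 0 h. Gata1, Klf1 and Tfrc had smaller log2 changes, 0.87, 0.80 and 0.35, and Epor was not called (0.12, limma adjusted p = 0.166). Whether the Gata1 probe set reads the disrupted gene or the fusion was not tested, so its change is not a plain sign of maturation. Summed mast cell and basophil markers (7 of 7 measured) read 21.6 to 22.4 at 30 h and 33.8 to 35.3 at 0 h. Megakaryocyte markers (5 of 6) read 22.9 to 23.6 at 30 h and 28.7 to 29.1 at 0 h. In these 2 lists Cpa3, Ms4a2, Gzmb, Hdc, Pf4 and Gp5 were lower at 30 h, while Tpsb2 (0.45) and Gp9 (0.66) were higher. Mcpt8 and Itga2b were not called, and Fcer1a and Gp1bb were not tested. Granulocyte and macrophage markers (7 of 8) gave 21.6 to 23.4 at 30 h against 21.3 to 23.1 at 0 h, and lymphoid markers (6 of 7) gave 21.1 to 22.1 at 30 h against 20.2 to 21.1 at 0 h. Their part in the results was not tested. The 3′ minus 5′ gap of the control probe sets, which widens as RNA is broken or labelled less fully, was 2.20 at 30 h and 1.89 at 0 h for Actb, and 1.52 at 30 h and 1.13 at 0 h for Gapdh. Its part in the results was not tested either.

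Precursor proteins enter through the TOM complex of the outer membrane, where receptors hand them to the Tomm40 pore. From there they take separate routes: the sorting machinery for barrel-shaped outer membrane proteins, the cysteine-oxidising relay of Chchd4 and the small Timm chaperones in the intermembrane space, the TIM22 complex for carrier proteins, or the TIM23 channel, whose motor pulls presequence proteins into the matrix where a peptidase clips them. Maturing red cells are known to need mitochondria for heme and iron-sulfur cluster synthesis and to clear them before they enter the circulation.

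Most import genes were lower by the end of the course. At 30 h 23 of 30 were lower and 1 was higher than at 0 h, with 6 not called (limma, adjusted p under 0.05 over 12720 genes), so 76.7% were lower, against 33.0% of all genes tested, while 36.6% of all genes were higher. The median log2 change was -0.48 for the import genes and 0.09 for all genes tested. On the probe sets used, falls of at least 2-fold were seen for 5 of the 30, Chchd4, Tomm40, Timm8a1, Timm9 and Timm50. Such a fall was called for 13.1% of all genes. Samm50, Pmpca, Tomm40l and Tomm70a fell by more than 2-fold on another probe set only. The 1 rise was Timm8b. All log2 changes are later minus earlier time, on values that the authors had already brought to a common scale, so each is relative to the middle of all genes on its array. When arrays were instead scaled on the hybridisation controls, the median of all genes at 30 h moved to 0.30 and that of the import genes to -0.28. Of the import genes 13 were then lower and 1 higher, beside 2585 lower and 4999 higher of all 12720 genes. Such controls are added to the hybridisation mix after labelling, so this scaling does not correct for the amount of RNA per cell. Chchd4, Tomm40, Timm8a1, Timm9, Timm50, Tomm70a, Timm13, Tomm34, Mtx2, Samm50, Timm10b, Timm10 and Timm21 were lower under both scalings, and Timm8b was higher under both.

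The number called lower was larger at each later time, all set against the same 0 h arrays. It was 8 of 30 (26.7%) after 3 h, then 12 (40%) at 7 h, 13 (43.3%) by 14 h, 18 (60%) by 21 h and 23 by 30 h, while the shares of all genes called lower at the first 4 of these times were 14.7%, 16.3%, 22.7% and 28.6%. Higher import genes numbered 1, 0, 3, 2 and 1 in the same order, and 11.2%, 15.3%, 22.2% and 31.4% of all genes were higher at 3, 7, 14 and 21 h. The median change of the import genes, in the order of these times, was -0.09, -0.12, -0.16, -0.27 and -0.48, against -0.02, 0.00, 0.02, 0.07 and 0.09 for all genes tested. Between 14 h and 30 h alone, 23 were lower at 30 h and 1, Timm17b, was higher (28.5% and 28.4% of all genes), with a median of -0.33. With control scaling the counts lower at 3, 7, 14 and 21 h were 0, 2, 1 and 11, and that for 30 h against 14 h was 12. The counts over all 12720 genes were 285, 653, 812, 2327 and 2412, against 1871, 2077, 2887, 3635 and 3629 with the deposited scaling. Over all genes, too, fewer were called lower under it. The import genes' median with it was 0.01, -0.17, 0.07 and -0.26 at those 4 times. Chchd4 (-0.66) and Tomm40 (-0.62) were still called at 7 h, and Chchd4 (-0.97) at 14 h. An F test over the 6 times called 25 of the 30 import genes. It also called 74.3% of all genes tested, so this count says little about the import genes in particular. Timm44, Timmdc1, Tomm20, Tomm22 and Tomm7 were the 5 not called. With control scaling the F test called 13 of the 30, and the share of all genes under that scaling is not given here.

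**Figure D1:**
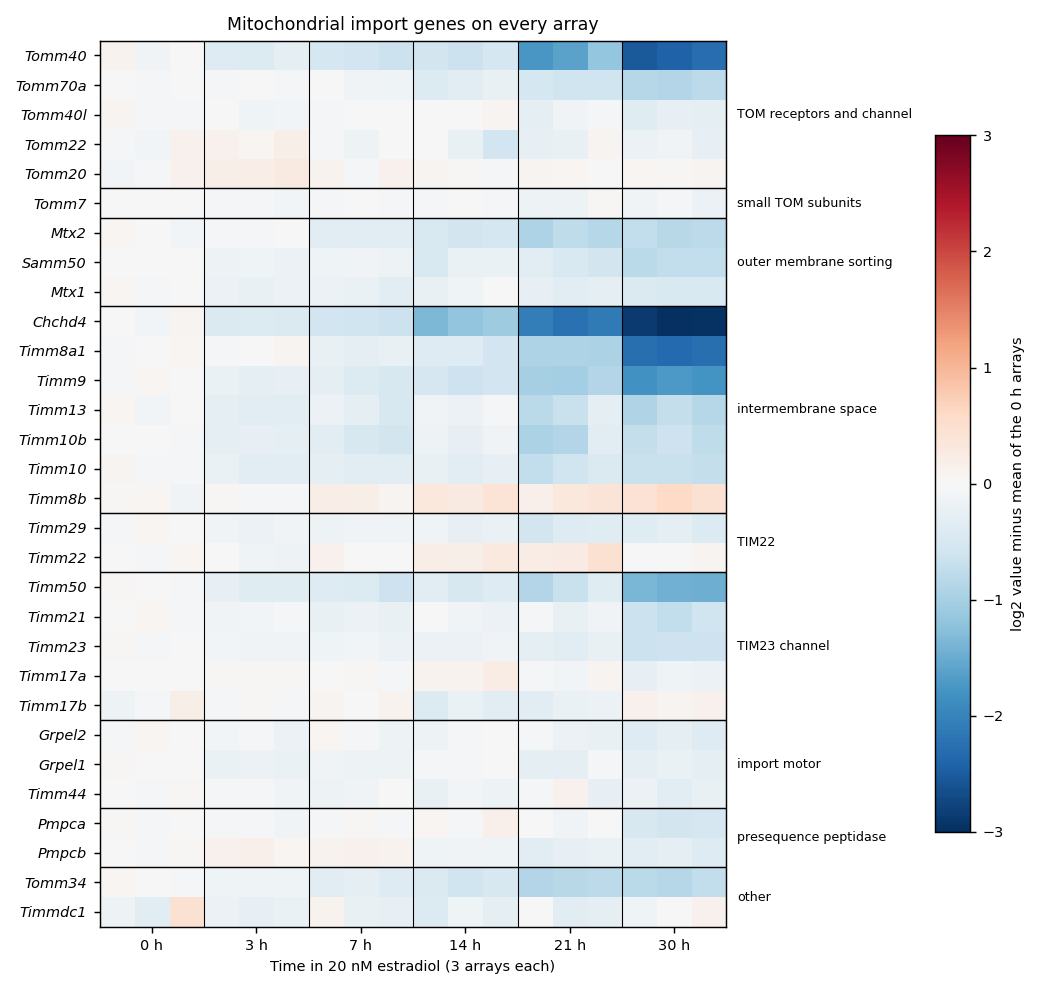
Log2 value on each of the 18 arrays minus the mean of the 0 h arrays (colour, blue for lower and red for higher) for the 30 tested import genes (rows, grouped by role), with 3 arrays per time in columns. The blue deepens towards 30 h, where 23 genes were called lower, and Timm8b is the only gene called higher there.

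Because the members moved unequally, the 250 bases before the annotated start are shown for 6 genes: those 4 of the 6 largest falls at 30 h whose window held a motif searched (Chchd4, Timm8a1, Timm9 and Tomm70a), the receptor gene Tomm20, which was not called at 30 h, and Timm8b, which rose. Sequences are from RefSeq on GRCm38.p6, read 5′ to 3′ on the gene's strand, and capitals mark the matches. The windows lie at chr6:91473424-91473673 (minus strand) for Chchd4, chrX:134541671-134541920 (minus) for Timm8a1, chr12:71136676-71136925 (minus) for Timm9, chr16:57121464-57121713 (plus) for Tomm70a, chr8:126945922-126946171 (minus) for Tomm20 and chr9:50603651-50603900 (plus) for Timm8b.
Chchd4: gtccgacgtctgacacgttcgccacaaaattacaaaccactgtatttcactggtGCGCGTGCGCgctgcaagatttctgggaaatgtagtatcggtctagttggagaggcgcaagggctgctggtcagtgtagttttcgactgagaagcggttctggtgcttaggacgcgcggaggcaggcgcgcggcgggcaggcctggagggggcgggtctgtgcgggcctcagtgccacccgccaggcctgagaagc
Timm8a1: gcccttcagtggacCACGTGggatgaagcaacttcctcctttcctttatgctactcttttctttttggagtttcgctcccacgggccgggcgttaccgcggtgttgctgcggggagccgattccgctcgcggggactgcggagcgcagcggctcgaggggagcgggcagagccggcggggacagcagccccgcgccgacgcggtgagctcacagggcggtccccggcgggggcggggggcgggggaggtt
Timm9: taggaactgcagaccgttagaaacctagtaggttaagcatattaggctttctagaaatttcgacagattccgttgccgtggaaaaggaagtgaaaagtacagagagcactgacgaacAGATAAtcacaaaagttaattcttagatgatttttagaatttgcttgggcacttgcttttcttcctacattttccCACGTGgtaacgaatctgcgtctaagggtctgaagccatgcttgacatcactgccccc
Tomm70a: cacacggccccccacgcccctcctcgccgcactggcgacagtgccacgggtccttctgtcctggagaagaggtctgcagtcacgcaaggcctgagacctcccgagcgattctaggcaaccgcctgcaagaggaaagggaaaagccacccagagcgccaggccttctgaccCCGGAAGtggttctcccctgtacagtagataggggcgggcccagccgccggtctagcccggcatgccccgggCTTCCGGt
Tomm20: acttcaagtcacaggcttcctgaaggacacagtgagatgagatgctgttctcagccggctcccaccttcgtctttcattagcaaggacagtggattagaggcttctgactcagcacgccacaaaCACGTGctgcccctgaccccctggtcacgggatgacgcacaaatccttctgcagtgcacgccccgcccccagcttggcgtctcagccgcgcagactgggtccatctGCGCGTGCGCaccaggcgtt
Timm8b: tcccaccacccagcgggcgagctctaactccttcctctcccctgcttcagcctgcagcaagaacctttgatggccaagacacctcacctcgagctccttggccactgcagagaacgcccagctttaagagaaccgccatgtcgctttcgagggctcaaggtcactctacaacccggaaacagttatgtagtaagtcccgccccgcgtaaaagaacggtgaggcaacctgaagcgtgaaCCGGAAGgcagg

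The motifs searched on both strands were for NRF1 the letters GCGCA and GCGC with any 1 base between them, CCGGAAG for ETS factors such as GABPA, which like NRF1 are known activators of mitochondrial genes, the E-box CACGTG bound by MYC and others, and AGATAA for GATA factors. No match printed above overlaps another. Of the 32 genes 28 had a window (2 of them had 2), and 14 (50%) held the ETS motif, which 6.91% of 32851 RefSeq windows of this length hold. Among genes lower at 30 h 10 of 20 held it, and among tested genes that were not lower 3 of 6 did, so the share with the motif was the same in both. Matches lie 80 and 8 bases before the start of Tomm70a and 12 bases before that of Timm8b, which moved in opposite directions. The NRF1 motif was in 2 windows (7.14%, against 3.74% of all), 196 bases before the start of Chchd4 and 20 before that of Tomm20. The E-box was in 4 (14.3%, against 6.02%), among them Timm8a1 at 236 bases, Timm9 at 58 and Tomm20 at 126. The GATA motif was in 2 (7.14%, against 9.99%), Timm9 at 133 bases and the untested Tomm20l. Only the letters AGATAA were searched for GATA factors, so a window with no such match may still hold another form of GATA site. Tomm40 and Timm50 held none of the 4. The windows of all genes were not matched to these for base composition or expression, so the shares are a description, and a match is not evidence of binding.

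**Figure D2:**
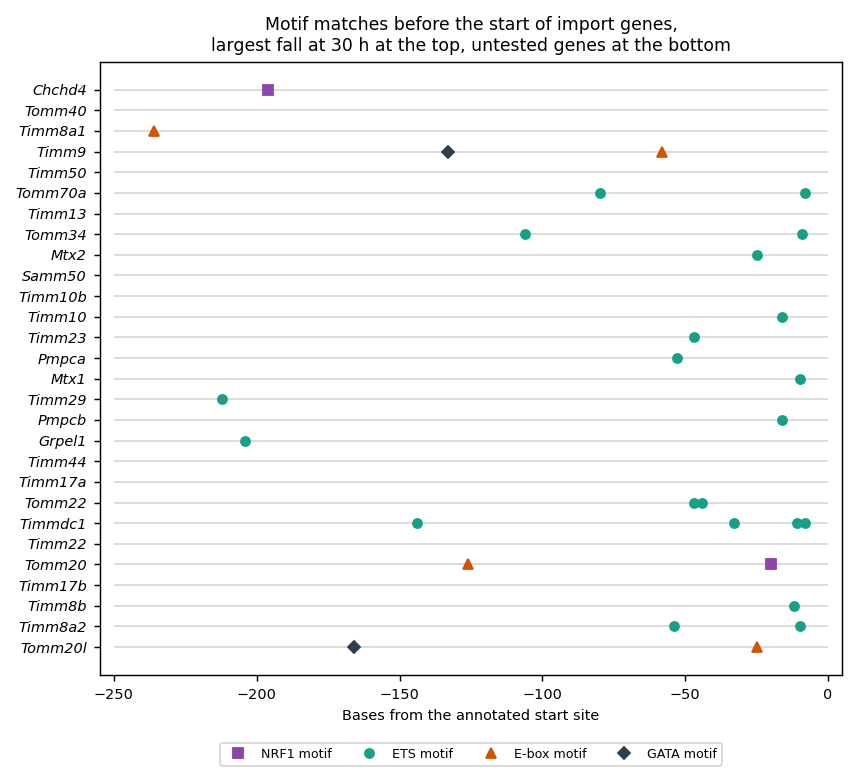
Motif matches (symbols) in the 250 bases before the annotated start of the import genes with a window, ordered by their change at 30 h with the largest fall at the top; the horizontal axis is the distance from the start in bases. ETS matches (circles) are in 14 genes, among them Tomm70a, which fell, Tomm22 and Timmdc1, which were not called, and Timm8b, which rose. Genes not tested are the last rows, and 1 window is drawn for Tomm34 and Timm22, which have 2.

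The intermembrane space relay held 3 of the 5 largest falls, those of Chchd4, Timm8a1 and Timm9. Of its 7 tested genes 6 were lower and 1 was higher at 30 h, with a median change of -0.83. Beside this, 33.0% of all genes tested were lower and 36.6% higher. At 3 h 4 of the 7 were lower, beside 14.7% of all genes, and none of the 7 was called then with control scaling. Chchd4, the oxidoreductase (MIA40) that folds small cysteine-rich proteins as they arrive, fell furthest of the 30. Its log2 values were 10.54, 10.46 and 10.61 at 0 h, 10.09, 10.13 and 10.10 at 3 h, 9.95, 9.93 and 9.89 at 7 h, 9.19, 9.34 and 9.47 at 14 h, 8.45, 8.29 and 8.41 at 21 h, and 7.65, 7.52 and 7.57 at 30 h. Each time lay below the one before with no overlap of arrays. The change was -0.43 at 3 h (limma adjusted p = 0.000323) and -1.20 at 14 h, and at 30 h Chchd4 was 7.76-fold lower (log2 -2.96, SE 0.070, adjusted p = 6.63e-15), or -2.75 with control scaling. Its window above holds the NRF1 motif and no ETS motif.

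Timm9 and Timm10 form the chaperone ring that shields hydrophobic carrier precursors on the way to TIM22. Timm9 read 10.48, 10.57 and 10.51 at 0 h, 10.32, 10.23 and 10.26 at 3 h, 10.23, 10.10 and 10.03 at 7 h, 10.01, 9.91 and 9.94 at 14 h, 9.52, 9.50 and 9.64 at 21 h, and 8.71, 8.80 and 8.72 at 30 h. All its later arrays lay below those at 0 h, and at 30 h it was 3.42-fold lower (log2 -1.78, SE 0.061, adjusted p = 4.05e-13). A second probe set of Timm9 gave -1.86. Timm10 gave -0.29 at 3 h and -0.69 at 30 h (adjusted p = 3.51e-07), and its 95% interval at 30 h, -0.85 to -0.54, did not overlap that of Timm9, -1.91 to -1.65. Timm10b, a small Timm protein bound to the TIM22 complex, gave -0.70 at 30 h, and its 4 probe sets gave -0.50 to -0.80. At 3 h its probe set used gave -0.26, and the others gave -0.27, -0.17 and -0.59. Of these, -0.59 and -0.27 were called lower when every probe set was tested on its own (limma adjusted p = 0.000242 and 0.0367). The hour at which Timm10b was first lower therefore depends on the probe set. Timm13, the partner of Timm8a1 in a second such ring, gave -0.32 at 3 h, -0.10 at 14 h (adjusted p = 0.494) and -0.83 at 30 h (adjusted p = 5.24e-06).

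Timm8a1, the mouse counterpart of the gene mutated in human deafness-dystonia syndrome, and its paralogue Timm8b moved in opposite directions. Timm8a1 read 11.86, 11.89 and 11.95 at 0 h, 11.87, 11.89 and 11.97 at 3 h, 11.68, 11.64 and 11.66 at 7 h, 11.52, 11.51 and 11.32 at 14 h, 10.98, 10.97 and 10.95 at 21 h, and 9.62, 9.56 and 9.63 at 30 h. The 3 h arrays overlapped those at 0 h (log2 change 0.01, adjusted p = 0.890), the 7 h arrays lay below them, and most of the fall came after 21 h. At 30 h Timm8a1 was 4.89-fold lower (log2 -2.29, SE 0.058, adjusted p = 1.15e-14), and its second probe set gave -2.72. That dimmer probe set (mean 8.06) gave -0.24 at 3 h (limma adjusted p = 0.0277 over all probe sets). The hour at which Timm8a1 was first lower therefore depends on the probe set. Timm8b read 10.83, 10.85 and 10.67 at 0 h, 10.83, 10.75 and 10.75 at 3 h, 10.98, 10.97 and 10.87 at 7 h, 11.11, 11.05 and 11.18 at 14 h, 10.93, 11.11 and 11.16 at 21 h, and 11.21, 11.39 and 11.25 at 30 h. From 7 h on its arrays lay above those at 0 h, with calls at 14 h (0.33), 21 h (0.28) and 30 h, where it was 1.41-fold higher (log2 0.50, SE 0.074, adjusted p = 1.89e-05). With control scaling Timm8b gave 0.70 at 30 h (adjusted p = 0.00172) and was not called at 21 h.

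**Figure D3:**
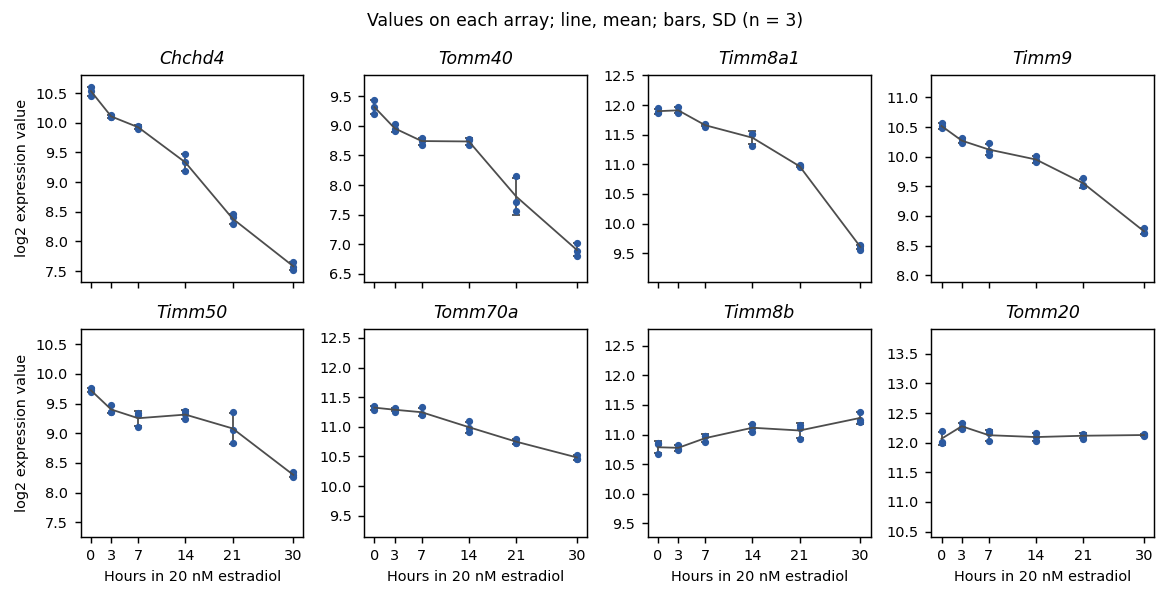
Log2 values on every array (points) against hours in 20 nM estradiol for 8 import genes, with the mean per time (line) and its SD (bars, n = 3); all panels span the same range of log2 units. Chchd4 falls at every step, while Timm8b ends with all 3 arrays at 30 h above all 3 at 0 h.

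At the outer membrane the pore fell, and the receptors split on the probe sets used. Of 5 tested genes for TOM receptors and channel 3 were lower at 30 h (Tomm40, Tomm70a and Tomm40l), and 2 were not called (Tomm20 and Tomm22). Over all genes tested the share lower was 33.0%. Tomm40, the pore through which nearly all precursors pass, read 9.43, 9.20 and 9.31 at 0 h, 8.94, 8.91 and 9.02 at 3 h, 8.80, 8.75 and 8.68 at 7 h, 8.75, 8.67 and 8.78 at 14 h, 7.56, 7.71 and 8.15 at 21 h, and 6.80, 6.89 and 7.02 at 30 h. It gave -0.36 at 3 h (adjusted p = 0.0306), a call lost when any of these 6 arrays but 0 h replicate 2 was left out and with control scaling (-0.26, adjusted p = 0.626). It had means of 8.74 at 7 h and 8.73 at 14 h, and by 30 h lay 5.31-fold lower (log2 -2.41, SE 0.114, adjusted p = 1.74e-11). At 21 h replicate 3 lay above the other two. The same array read 10.73 against 10.20 and 10.34 for Timm13, and 9.07 against 8.44 and 8.51 for Timm10b. Its 3′ minus 5′ gap was 1.89 for Actb and 1.24 for Gapdh, against 2.18 to 2.36 and 1.52 to 1.78 on the other 21 h arrays. The part of this in the 21 h values was not tested.

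Tomm40l, a paralogue of the pore, read 9.04, 8.92 and 8.88 at 0 h, 8.94, 8.82 and 8.86 at 3 h, 8.90, 8.94 and 8.93 at 7 h, 8.96, 8.97 and 9.02 at 14 h, 8.66, 8.83 and 8.91 at 21 h, and 8.58, 8.71 and 8.66 at 30 h. Its arrays overlapped those at 0 h until 21 h and lay below them only at 30 h (log2 -0.30, adjusted p = 0.000778), where control scaling gave -0.10 (adjusted p = 0.680). A dimmer second probe set gave -1.06, so the size of this fall is uncertain.

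Tomm70a, the receptor for carrier precursors that lack a cleavable presequence, read 11.34, 11.29 and 11.34 at 0 h, 11.29, 11.31 and 11.26 at 3 h, 11.33, 11.21 and 11.20 at 7 h, 10.91, 10.98 and 11.09 at 14 h, 10.79, 10.73 and 10.73 at 21 h, and 10.46, 10.45 and 10.53 at 30 h. It was not called at 3 h and 7 h (-0.04 and -0.08, adjusted p = 0.693 and 0.338), was first called at 14 h (-0.33), and by 30 h lay 1.79-fold lower (log2 -0.84, SE 0.057, adjusted p = 1.36e-09). Its other 3 tested probe sets gave -0.89, -1.08 and -1.65. Tomm20, a receptor for presequences, read 11.99, 12.01 and 12.19 at 0 h, 12.23, 12.26 and 12.34 at 3 h, 12.17, 12.02 and 12.19 at 7 h, 12.16, 12.10 and 12.03 at 14 h, 12.15, 12.13 and 12.07 at 21 h, and 12.13, 12.11 and 12.15 at 30 h. Its 3 h arrays lay above those at 0 h (0.21, adjusted p = 0.0256), the only import gene higher at that time, and the 30 h arrays overlapped them (0.06, 95% interval -0.08 to 0.20, adjusted p = 0.403). The 3 h call was lost with control scaling, where the change was larger (0.31, adjusted p = 0.486), with the mean of its probe sets and when 0 h replicate 1 or 2 or 3 h replicate 2 or 3 was left out.

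Probe sets of Tomm20 disagree. The 3 brightest gave 0.06, 0.02 and 0.11 at 30 h, and the other 3 gave -0.50, -0.34 and -0.58, each called lower when every probe set was tested on its own. Tomm22, the central receptor that holds the complex together, gave -0.18 (95% interval -0.43 to 0.08, adjusted p = 0.198) on its brightest probe set and -0.60 on the other, which was called. Tomm7, a small subunit, gave -0.11 (adjusted p = 0.0949), and its other probe sets gave 0.15, -0.34 and -0.28, of which -0.34 was called. For these 3 genes the call therefore depends on the probe set. Of 18 members with several tested probe sets, 0 had a lower call on some and a higher call on others at 30 h.

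**Figure D4:**
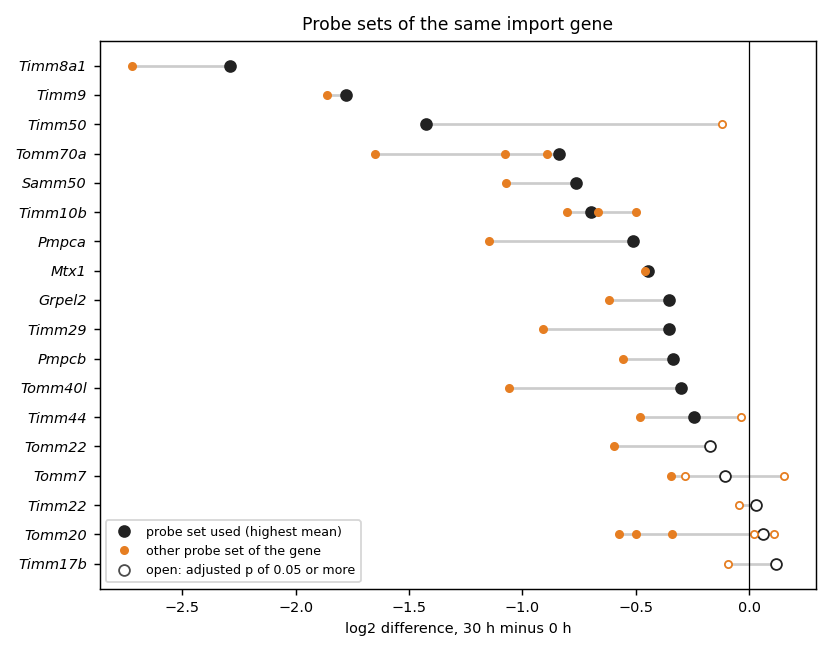
Log2 change at 30 h minus 0 h for each tested probe set of the 18 import genes that have several (rows); black points are the probe sets used, orange points the others, and open symbols have an adjusted p of 0.05 or more. Within most genes the points share a side of 0, while those of Tomm20 lie between -0.58 and 0.11.

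The 3 outer membrane sorting genes were all lower at 30 h, beside 33.0% of all genes tested. Mtx1 was not called with control scaling (-0.24, adjusted p = 0.281). Samm50, which inserts barrel proteins, was first called at 14 h (-0.28) and by 30 h lay 1.70-fold lower (log2 -0.76, adjusted p = 7.02e-08). A second tested probe set of Samm50 gave -1.07 at 30 h. Mtx2, a metaxin of the same machinery, gave -0.33 at 7 h, -0.85 at 21 h and -0.79 at 30 h (adjusted p = 1.75e-09), and its partner Mtx1 gave -0.19 at 3 h and -0.45 at 30 h (adjusted p = 1.14e-05). Tomm34, a cytosolic cochaperone that helps keep precursors unfolded, followed a course like that of Mtx2, with -0.33 at 7 h, -0.83 at 21 h and -0.80 at 30 h (adjusted p = 2.20e-09).

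At the inner membrane the TIM23 channel genes fell by unequal amounts, 4 of 5 being lower at 30 h with a median of -0.63. The share lower over all genes tested was 33.0%. Timm50, the receptor that takes presequences from the TOM complex, read 9.76, 9.73 and 9.69 at 0 h, 9.47, 9.36 and 9.37 at 3 h, 9.33, 9.32 and 9.11 at 7 h, 9.38, 9.23 and 9.33 at 14 h, 8.84, 9.05 and 9.35 at 21 h, and 8.34, 8.29 and 8.26 at 30 h. All its later arrays lay below those at 0 h, and it was 2.69-fold lower at 30 h (log2 -1.43, SE 0.100, adjusted p = 2.07e-09), with most of the fall after 21 h. A dim second probe set (mean 5.61) gave -0.12 (adjusted p = 0.396). Of its 21 h arrays, replicate 3 was again the highest. Timm23, the channel itself, gave -0.15 at 14 h and -0.63 at 30 h (adjusted p = 6.12e-09, and 0.0556 with control scaling), and Timm21, which links the channel to the TOM complex, gave -0.66 at 30 h (adjusted p = 6.62e-08).

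Timm17a and Timm17b, alternative subunits of that channel, did not follow Timm50. Timm17a read 11.38, 11.38 and 11.36 at 0 h, 11.40, 11.40 and 11.40 at 3 h, 11.39, 11.40 and 11.33 at 7 h, 11.48, 11.48 and 11.59 at 14 h, 11.32, 11.28 and 11.46 at 21 h, and 11.12, 11.25 and 11.21 at 30 h. Its 14 h arrays lay above those at 0 h (0.14, adjusted p = 0.0496) and its 30 h arrays below them (-0.18, adjusted p = 0.00952), and with control scaling the 30 h change was 0.02 (adjusted p = 0.928). The 14 h call of Timm17a was lost when any 0 h or 14 h array was left out and with no filter on dim genes. It was also lost with only the arrays compared, with a replicate block and with no _x_at or _s_at probe sets. The 30 h call of Timm17a was lost without 30 h replicate 1. Timm17b read 10.67, 10.79 and 10.98 at 0 h, 10.78, 10.85 and 10.76 at 3 h, 10.89, 10.79 and 10.91 at 7 h, 10.41, 10.62 and 10.47 at 14 h, 10.50, 10.61 and 10.63 at 21 h, and 10.95, 10.89 and 10.95 at 30 h. It was lower at 14 h (-0.31, adjusted p = 0.00325) and 21 h (-0.23), and at 30 h it overlapped 0 h again (0.12, 95% interval -0.05 to 0.28) while lying above all 14 h arrays (0.43, adjusted p = 0.000163). With control scaling none of these calls was made, although Timm17a gave 0.37 at 14 h (adjusted p = 0.148) and Timm17b gave 0.40 for 30 h against 14 h (adjusted p = 0.105). Timm17b gave -0.08 at 14 h with that scaling. Its 21 h call was also lost with only the arrays compared and without 0 h replicate 3 or 21 h replicate 1. The second probe set of Timm17b, used when _x_at and _s_at probe sets were left out, gave -0.23 at 3 h and at 7 h (adjusted p = 0.0358 and 0.0333). At 30 h it gave -0.10 and was not called. The hour at which Timm17b was first lower therefore depends on the probe set.

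Changes of the matrix motor and peptidase genes were below 2-fold on the probe sets used. Grpel1 and Grpel2, nucleotide exchange factors that reset the motor chaperone, and Timm44, which tethers it to the channel, were all lower at 30 h, by 0.25, 0.35 and 0.24 on the log2 scale, and none of the 3 was called with control scaling. Grpel1 read 11.08, 11.02 and 11.03 at 0 h, 10.85, 10.86 and 10.85 at 3 h, 10.93, 10.89 and 10.89 at 7 h, 11.02, 11.00 and 11.02 at 14 h, 10.75, 10.78 and 11.00 at 21 h, and 10.78, 10.85 and 10.76 at 30 h. All 3 h arrays lay below those at 0 h (-0.19, adjusted p = 0.0271), a call lost without any of these 6 arrays and with control scaling (-0.09, adjusted p = 0.903). Those at 14 h overlapped them (-0.03, adjusted p = 0.735), and those at 30 h lay below them (adjusted p = 0.00174). Grpel2 read 8.99, 9.11 and 9.04 at 0 h, 8.96, 8.99 and 8.86 at 3 h, 9.10, 8.99 and 8.90 at 7 h, 8.89, 8.998 and 9.06 at 14 h, 9.001, 8.87 and 8.82 at 21 h, and 8.66, 8.75 and 8.67 at 30 h. On this probe set its arrays overlapped those at 0 h until 21 h and lay below them only at 30 h (adjusted p = 0.000280). The second probe set of Grpel2 gave -0.44 at 3 h (adjusted p = 0.00620) and -0.62 at 30 h, so the hour at which Grpel2 fell depends on the probe set.

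Pmpca and Pmpcb, the subunits of the peptidase that removes presequences, were lower at 30 h by 0.51 (adjusted p = 4.88e-07) and 0.34 (adjusted p = 1.49e-05), and neither was called with control scaling (-0.31 and -0.13). At 21 h Pmpca gave -0.04 (adjusted p = 0.574), so its fall on this probe set came after that. Second probe sets gave -1.15 for Pmpca and -0.56 for Pmpcb at 30 h. In the carrier route the TIM22 genes split. Timm22, the channel, was higher at 14 h (0.22, adjusted p = 0.0190) and 21 h (0.31, adjusted p = 0.00115) and level with 0 h at 30 h (0.03, 95% interval -0.12 to 0.18). Timm29, a further subunit, gave -0.35 at 30 h (adjusted p = 6.51e-05), and its second probe set gave -0.91. With control scaling Timm22 gave 0.45 at 14 h and 0.33 at 21 h, no smaller but not called (adjusted p = 0.0780 and 0.199), and Timm29 gave -0.15 at 30 h (adjusted p = 0.511). Timmdc1, an assembly factor of respiratory complex I that shares the family name, gave 0.01 at 30 h with a wide interval (-0.33 to 0.35).

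**Figure D5:**
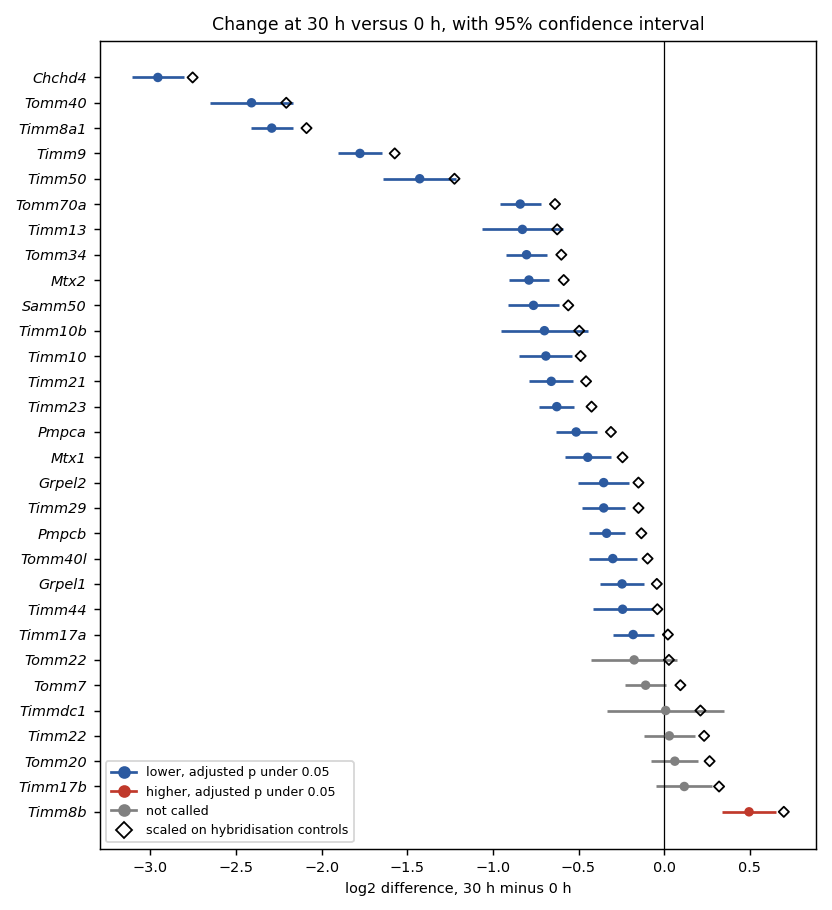
Log2 change at 30 h minus 0 h of the 30 tested import genes (rows) with 95% confidence intervals, in blue where called lower, red where called higher and grey where not called; open diamonds are the changes with arrays scaled on hybridisation controls. The diamonds lie to the right of the points, and 13 genes called lower under that scaling range from Chchd4 at -2.75 to Timm21 at -0.46.

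By the first hour at which a gene was called lower and stayed so, 5 genes began at 3 h (Chchd4, Timm10, Timm50, Timm9 and Tomm40), 3 at 7 h (Mtx2, Timm8a1 and Tomm34), 4 at 14 h (Samm50, Timm23, Timm29 and Tomm70a), 5 at 21 h (Grpel1, Mtx1, Pmpcb, Timm10b and Timm13) and 6 at 30 h (Grpel2, Pmpca, Timm17a, Timm21, Timm44 and Tomm40l). All these comparisons share the 0 h arrays, and the hours hold for the probe sets used. Other probe sets of Timm8a1, Timm10b and Grpel2 were already called lower at 3 h. A gene with an uncalled hour in between is placed after it, as Grpel1 was called at 3 h but not at 14 h. With control scaling none of the genes listed was called at 3 h. Only Chchd4 and Tomm40 were then called at 7 h, and only Chchd4 was lower at 14 h. Grpel1, Mtx1, Pmpcb, Timm23, Timm29, Grpel2, Pmpca, Timm17a, Timm44 and Tomm40l were with it lower than at 0 h at no time. The order given is therefore that of the deposited scaling. The 21 h call of Grpel1 was also lost with only the arrays compared. The 3 h call of Timm50 was lost without 0 h replicate 1 or 2 or 3 h replicate 2 or 3 and with control scaling (-0.23, adjusted p = 0.695). With the mean of its probe sets, dim ones included, Timm50 was not called at 3, 7 or 14 h. It then gave 0.002, -0.06 and -0.08 (limma adjusted p = 0.991, 0.625 and 0.438), so its early start rests on the probe set used. Lowest means fell at 30 h for 20 of the 30 genes and at 21 h for 4. The 8 lower at 3 h became 3 without 0 h replicate 1, 3 h replicate 2 or 3 h replicate 3, 4 without 0 h replicate 3 or 3 h replicate 1, and 5 without 0 h replicate 2. The 3 higher at 14 h became 1 without 0 h replicate 1, 0 h replicate 2 or 14 h replicate 3, and the 1 higher at 30 h became 2 without 0 h replicate 3.

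Other genes of the pathway were read from a list of 56 partners outside the naming rule, of which 49 were tested. At 30 h 28 were lower and 12 higher, with a median of -0.40, beside 33.0% lower and 36.6% higher of all genes tested. The partner counts use the deposited scaling. In the matrix, Hspa9, the motor chaperone itself, and Hspd1, the folding chamber HSP60, were lower, with log2 changes of -1.05 (adjusted p = 1.58e-11) and -1.56 (adjusted p = 8.51e-14). Of the 7 tested matrix chaperones and J proteins 5 were lower and 2 higher, Dnajc15 (0.85, adjusted p = 3.30e-09) and Pam16, a regulator of the motor (0.21, adjusted p = 0.0199). Gfer, the sulfhydryl oxidase that recharges Chchd4, gave -1.02 (adjusted p = 1.18e-09) and Agk, a subunit of the TIM22 complex, gave -1.72. Both genes for outer membrane insertion, Mtch1 and Mtch2, were higher (0.34 and 0.51). Of the mitophagy genes measured, Pink1, the kinase that is imported and degraded in healthy mitochondria, was higher by 2.34 (adjusted p = 3.58e-13) and Bnip3, a mitophagy receptor, by 1.49 (adjusted p = 8.71e-08), while Fundc1, another receptor, gave -0.16 (adjusted p = 0.0938).

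Among 9 tested transcription factors of mitochondrial genes 6 were lower and 1 higher at 30 h, beside 33.0% and 36.6% of all genes tested. Myc gave -3.18 (adjusted p = 1.17e-11), and the coactivators Pprc1 and Ppargc1b gave -2.73 and -2.22. Tfam, the mitochondrial DNA factor, gave -1.80, and Gabpa, which binds ETS motifs, gave -0.80 (adjusted p = 1.73e-06). Nrf1 gave 0.14 (adjusted p = 0.125) and Gabpb1, the partner of Gabpa, was higher (0.28, adjusted p = 0.000793). Whether these moves bear on the import genes was not tested.

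Set beside other mitochondrial genes at 30 h, 47 of 76 mitochondrial ribosomal protein genes were lower (61.8%) and 4 higher, with a median of -0.59. In a respiratory chain list 40 of 88 genes were lower (45.5%) and 25 higher, with a median of -0.10. That list was taken by how the symbol begins, which also admits genes that are not subunits, such as Ndufaf assembly factors. The import genes, at 23 of 30 lower and a median of -0.48, had the highest share lower of these lists and a median between theirs. These are counts and medians of each list with the deposited scaling, and a difference between the lists was not tested. Of all genes tested, 33.0% were lower at 30 h and 36.6% were higher.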

How the data were processed

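Each of the 18 samples is 1 Affymetrix array of biotin-labelled total RNA extracted with Trizol, per the labels' protocols. The authors deposited log2 expression values of 45101 probe sets on each array. The sources used here do not say how probes were summarised, corrected for background and scaled. The log base was read from the range of the values. Similar array medians show that the values had been brought to a common scale, so a change is relative to the middle of all genes.

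Genes were named through the platform annotation (34958 probe sets with 1 gene, 932 with several, 9211 with none), and all 32 import genes were found in RefSeq with 0 symbols changed. Of several probe sets of a gene, the one with the highest mean was used. Values were fitted with limma 3.58.1 in R 4.3.3 on all 18 arrays with a mean per time (12 residual degrees of freedom), two-sided, with Benjamini-Hochberg adjustment over 12720 genes and a call at an adjusted p under 0.05. Values on every array are given for the 6 largest called rises and falls at 30 h, the 3 largest of each at 3 h and both genes of 4 paralogue pairs. The scripts were tested on simulated data. Members, lists and naming rule were chosen with earlier results of these data known. The number of arrays, 3 per time, limits the precision. Alternatives were quantile normalization, scaling on 18 hybridisation controls, no filter on dim genes, a stricter 60th percentile, averaged probe sets, no _x_at or _s_at probe sets, only the arrays compared, a trended and robust variance, a replicate block and leaving out each array.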

Additional observations from a re-analysis of the deposited data

How the results depend on the processing

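Scaling on the hybridisation controls changed most counts. With it the F test called 13 import genes, and those lower at 3, 7, 14, 21 and 30 h numbered 0, 2, 1, 11 and 13, and 12 for 30 h against 14 h; those higher numbered 0 at 3 h, 1 at 14 h, 0 at 21 h and 0 for 30 h against 14 h. The cause was not tested. At 3 h, 5 were lower with no filter, and 0 were higher with the mean of probe sets, with no filter and with only the arrays compared. Those higher at 30 h against 14 h numbered 2 with the 60th-percentile filter, with only the arrays compared and with a trended robust variance. Leaving out 1 array at a time gave 25 to 27 genes by the F test; lower genes numbered 3 to 5, 9 to 12, 11 to 14, 18 to 20 and 22 to 23 at these times and 21 to 23 for 30 h against 14 h, and higher genes 0 to 1, 0 to 0, 1 to 2, 2 to 2, 1 to 2 and 1 to 1 in the same order. Single changes that turned direction with a call in either setting were Timm17a at 30 h with control scaling (0.0219, adjusted p = 0.928), Timm17b at 7 h without _x_at and _s_at probe sets (-0.23, adjusted p = 0.0333), Timm50 at 3 h with the mean of probe sets (0.00200, adjusted p = 0.991) and Tomm20 with that mean at 14 h (-0.13), 21 h (-0.20) and 30 h (-0.20, adjusted p = 0.00243). Of the other values of single genes, 1084 kept direction and side of the threshold, 67 lost a call and 13 gained one. With the replicate number as a block, 7, 11, 13, 18, 23 and 23 were lower and 1, 0, 2, 2, 1 and 1 higher, in the order above; same-numbered arrays correlated at -0.17 to 0.19, so the numbers were not taken to pair them. With 3 arrays per time, changes smaller than the spread between arrays were not detectable.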
